A study of Mus with 96 samples.

Results

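The genes described here are 9 genes of hepatic fatty acid use: Ppara, Cpt1a, Cpt2, Acadl, Acadm, Acadvl, Hadha, Bdh1, and Fgf21. They were taken from the liver count table by gene name, 9 of the 55487 genes listed, and all 9 passed the filter of 100 counts summed over the 96 libraries, as 15548 genes did. The livers came from young adult C57BL/6J mice of both sexes kept in a light-dark cycle with food at all times. Hep-Bmal1KO mice carried 1 Alb-Cre allele, which is active in hepatocytes, together with 2 floxed Bmal1 alleles, and the Hep-Bmal1WT mice were littermates that carried the same 2 floxed alleles without Cre. Both genotypes were fed for 2 weeks either normal chow (NC) or cdHFD, a high-fat diet without choline that brings on steatohepatitis. The paper also lists cholesterol, methionine, and a lower share of protein than in NC for cdHFD, and effects of these parts cannot be told apart. Livers were collected at ZT 2, 6, 10, 14, 18, and 22, where ZT counts hours from lights on. Each of the 24 groups of genotype, diet, and ZT held 4 mice, mostly 2 males and 2 females.

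Fatty acids that enter the hepatocyte are activated to acyl-CoA and carried into mitochondria on carnitine, by CPT1A on the outer membrane and CPT2 on the inner membrane. There the acyl-CoA dehydrogenases ACADVL, ACADL, and ACADM take the first step of each β-oxidation cycle for very long, long, and medium chains, and the trifunctional protein, whose α subunit is HADHA, takes the following steps for long chains. Much of the acetyl-CoA formed is turned into ketone bodies in fasting, with BDH1 making 3-hydroxybutyrate from acetoacetate. PPARA is the fatty acid-sensing nuclear receptor that drives transcription of many of these enzymes, and FGF21 is a hormone that the liver releases in fasting and under nutrient or cell stress.

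BRB-seq reads the 3′ portion of polyadenylated RNA with a barcode for each sample. The reads counted on genes ranged from 1861740 to 9718615 per library (median 6412079). The floxed part of Bmal1 need not be covered by 3′ reads, so the genotype label was checked with 10 clock genes and 20 other genes, and 7 of the 96 libraries were nearer to the other label of their own diet and ZT. They were 4 libraries of NC and 3 of cdHFD, they were kept under their labels, and the counts and calls of genotype differences are also given without them. The 20 other genes were those with the smallest p for genotype at the other ZTs of the same diet. Leaving out libraries picked in this way can by itself widen genotype differences. Larger differences or smaller p-values without the 7 are therefore no independent support. Library names in the labels read as plate wells. By these names, each of the 12 plate columns held libraries of 1 genotype and 1 diet. Genotype and diet therefore cannot be told apart from plate column. Each column also held livers of neighboring ZTs only, so times of day in different columns cannot be told apart from plate column either. That limit applies to every daily profile, rhythm call, and peak time given below. All 7 hepatocyte markers examined were present in every group, with a summed level of 48706 to 212441 CPM, the counts scaled to a common library size.

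The 9 genes were read at different depth, and levels are not compared between genes. Over the 24 Hep-Bmal1WT livers on NC, mean CPM with SD was 20.1 ± 8.42 for Ppara and 4.58 ± 5.09 for Fgf21, and the 7 enzyme genes had means from 171 ± 44.9 for Cpt1a to 274 ± 24.9 for Acadvl. The lowest single count was 2 reads, for Fgf21. These SDs include the variation over the day. Reads from genes that overlap a member could not be separated from it, since no strand setting for the counting is given in the sources used here: 1 or 2 annotated genes overlap each of Cpt1a (Gm36532), Acadl (Gm15793 and Gm27934), Acadvl (Mir324), and Bdh1 (Gm15743).

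**Figure D1:**
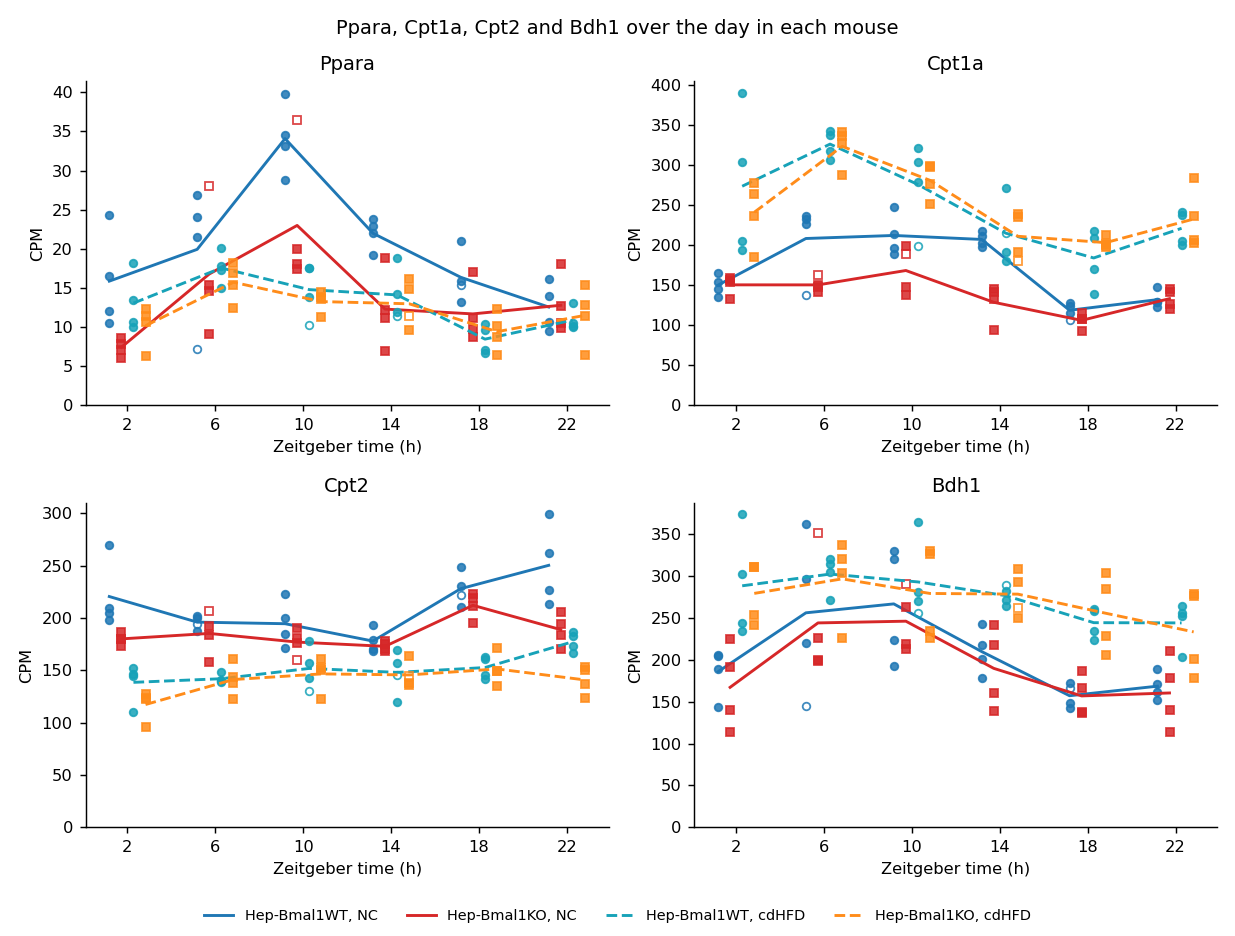
Levels of Ppara, Cpt1a, Cpt2, and Bdh1 (CPM, vertical axes) in every mouse against ZT in hours (horizontal axes) for the 4 combinations of genotype and diet, with lines through the means of 4 mice and open symbols for the 7 libraries nearer to the other genotype label. Ppara on NC is highest at ZT 10, and Cpt1a is higher and Cpt2 lower on cdHFD than on NC.

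The question of the first comparison was whether the genes changed in livers lacking hepatocyte Bmal1. On NC, 4 of the 9 were lower in Hep-Bmal1KO than in Hep-Bmal1WT in the quasi-likelihood test of edgeR (Benjamini-Hochberg adjusted p under 0.05), and none was higher. Of all 15548 genes 12.6% were called, with 5.61% lower and the others higher. The 4 genes were the receptor Ppara, both carnitine palmitoyltransferases Cpt1a and Cpt2, and the dehydrogenase Acadl. Without the 7 libraries nearer to the other label 5 of the 9 were lower, with Acadm added, where 17.1% of all genes were called. With replicate 1 of each group left out, a male in every NC group, 1 of the 9 passed, Cpt1a. In males alone 4 passed and in females alone 0. Most of the NC libraries nearer to the other label were of females, and a difference of the genotype effect between the sexes was not tested. On cdHFD none of the 9 passed the same test, where 9.61% of all genes did, and 1 of the 9 had an unadjusted p under 0.05. DESeq2 called none there, and without the 7 libraries none passed in edgeR either, where 6.55% of all genes were higher and 6.46% lower. Markers of bile duct cells moved with genotype as well, with 2 of 5 higher in Hep-Bmal1KO on NC (summed level 33.2 to 144.3 CPM in Hep-Bmal1WT and 60.7 to 144.5 in Hep-Bmal1KO) and 3 of 5 on cdHFD (52.1 to 215 and 69.7 to 750.05 CPM). On cdHFD 6 of 9 stellate cell markers were higher (553 to 1125 CPM in Hep-Bmal1WT and 527 to 1696 in Hep-Bmal1KO), as were 3 of 9 macrophage markers, with 1 lower (1041 to 2596 and 1468 to 3063 CPM), and 2 of 6 markers of T cells, B cells, and neutrophils (52.1 to 106 and 42.1 to 189 CPM). None of these 3 lists had a member called on NC in edgeR. Of the 7 hepatocyte markers 2 were lower with genotype on each diet. The part of any of these in the genotype differences was not tested.

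Ppara (ENSMUSG00000022383, chromosome 15, 85734910 to 85806851 of GRCm38) was highest at ZT 10 on NC, when the Hep-Bmal1WT livers on NC had 28.8, 33.2, 34.6, and 39.7 CPM and the Hep-Bmal1KO livers 17.5, 18.1, 19.9, and 36.4 CPM. The genotypes overlapped through 1 liver, the knockout with 36.4 CPM, and that library was 1 of the 7 nearer to the other label. At ZT 14 the levels were 19.2, 22.1, 22.9, and 23.8 CPM in Hep-Bmal1WT and 6.96, 11.1, 12.2, and 18.9 CPM in Hep-Bmal1KO. At ZT 2 they were 10.5, 12.1, 16.6, and 24.4 CPM against 6.02, 7.11, 7.88, and 8.66 CPM. Every wild-type liver was thus above every knockout liver at ZT 2 and at ZT 14, which held for 4.47% and 9.85% of all genes in either direction. At ZT 6 and ZT 10, where 4.49% and 5.32% of all genes did so, no member separated the genotypes on NC. Without the 7 libraries Ppara, Cpt1a, Acadl, Acadm, and Hadha were separated at ZT 6, all lower in Hep-Bmal1KO, where 18.3% of all genes were separated among 3 livers against 3. Ppara was separated at ZT 10, where 17.5% of all genes were among 3 against 4.

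Over the 6 ZTs the log2 fold change of Ppara with genotype on NC was -0.52 (SE 0.13, adjusted p = 0.0054, edgeR). It was -0.68 without the 7 libraries (adjusted p = 1.6e-05). On cdHFD the 24 livers of each genotype ranged from 6.71 to 20.1 CPM in Hep-Bmal1WT, with a median of 12.5, and from 6.31 to 18.2 CPM in Hep-Bmal1KO, with a median of 12.3. These ranges nearly coincide, and the log2 fold change of -0.10 (SE 0.091) had a 95% interval from -0.28 to 0.078. No member passed edgeR's test of genotype by diet, where 3.04% of all genes did, and 2 of the 9 had an unadjusted p under 0.05, Ppara and Cpt1a. DESeq2 called 1, Cpt1a. For Ppara the difference of the genotype effects between diets was 0.42 on the log2 scale (SE 0.16, unadjusted p = 0.011, adjusted p = 0.15), and it passed without the 7 libraries, at 0.56 (edgeR, adjusted p = 0.010, 5.91% of all genes called).

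Ppara was lower on cdHFD in Hep-Bmal1WT, from 20.1 ± 8.42 CPM on NC to 13.1 ± 3.86 on cdHFD (SD, n = 24 each), a log2 fold change of -0.57 (SE 0.11, adjusted p = 3.5e-05). In Hep-Bmal1KO the levels were 14.0 ± 7.10 and 12.2 ± 3.23 CPM, and the log2 fold change of -0.15 (SE 0.12) did not pass (adjusted p = 0.31). The comparisons of genotype on NC and of diet in each genotype share their NC libraries.

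The daily profile was fitted with a cosine of 24 hours to variance-stabilized values, on which amplitude is in log2 units from mesor, the fitted mean level, to peak. A gene was called rhythmic at an unadjusted p under 0.01 in at least 1 of the cosinor test, JTK_CYCLE, and edgeR's test of the cosine and sine terms. In Hep-Bmal1WT on NC 5 of the 9 were rhythmic, Ppara, Cpt1a, Cpt2, Bdh1, and Fgf21, where 21.9% of all genes were. In Hep-Bmal1KO on NC they were 2 of 9, Cpt1a and Bdh1 (10.6% of all genes). On cdHFD the 3 rhythmic members in Hep-Bmal1WT were Ppara, Cpt1a, and Fgf21 (18.3% of all genes) and the 2 in Hep-Bmal1KO were Cpt1a and Fgf21 (9.85% of all genes). Cpt1a was the member called in all 4.

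A loss of a call in 1 group does not show that the rhythms differ. The profile of no member differed between genotypes when genotype was tested with the cosine and sine terms in edgeR at the same threshold, on NC (0.392% of all genes called) or on cdHFD (0.424%). Unadjusted p-values under 0.05 were found for 2 of the 9 on NC and 0 on cdHFD. They were Fgf21 (edgeR, adjusted p = 0.17) and Cpt1a (edgeR, adjusted p = 0.27). DESeq2 called none of the 9 either. Between diets, 2 of the 9 profiles differed in Hep-Bmal1WT, Fgf21 and Cpt1a (6.19% of all genes), and 0 in Hep-Bmal1KO (0.907%), with edgeR and with DESeq2. The call of Cpt1a (adjusted p = 0.045) was lost with any replicate number left out and without the 7 libraries, and that of Fgf21 was not.

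For Ppara the fitted peak on NC was at ZT 10.7 (SE 0.84 h) with an amplitude of 0.54 (SE 0.12) in Hep-Bmal1WT. The Hep-Bmal1KO fit gave ZT 10.4 (SE 1.37 h) and 0.40 (SE 0.14), which was not called rhythmic. On cdHFD the peak in Hep-Bmal1WT was at ZT 7.44 (SE 0.80 h) with an amplitude of 0.36 (SE 0.075). Compared by CircaCompare, which fits both groups in 1 model, the peak on cdHFD differed from that on NC by -3.23 h (SE 1.28, adjusted p = 0.042, a negative value being earlier). The Ppara peak difference without the 7 libraries was -2.08 h (unadjusted p = 0.036). Among the 1187 genes rhythmic on both diets in Hep-Bmal1WT, 37.9% had a peak time that differed at an adjusted p under 0.05.

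Cpt1a (ENSMUSG00000024900, chromosome 19, 3322326 to 3385735), the rate-controlling step of the carnitine shuttle, was highest from ZT 6 to ZT 14 in Hep-Bmal1WT on NC, which spans the end of the light phase. On NC at ZT 14 the Hep-Bmal1WT livers had 198, 203, 211, and 218 CPM and the Hep-Bmal1KO livers 94.6, 133, 142, and 146 CPM. The genotypes did not overlap at that time. At ZT 6 the levels were 138, 227, 232, and 236 CPM against 142, 148, 150, and 163 CPM. The wild-type liver with 138 CPM, below all 4 knockouts, was 1 of the 7 libraries nearer to the other label, and the other 3 wild types were above all knockouts. At ZT 18, near the trough, Hep-Bmal1WT had 107, 116, 124, and 128 CPM and Hep-Bmal1KO 93.2, 108, 108, and 115 CPM, which overlapped, although not without the wild-type liver nearer to the other label (10.4% of all genes separated without it).

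The mean log2 fold change of Cpt1a with genotype on NC was -0.28 (SE 0.064, adjusted p = 0.0021), or -0.31 without the 7 libraries (edgeR, adjusted p = 0.00036), and on cdHFD it was 0.0017 (SE 0.064, 95% interval -0.12 to 0.13). The difference between diets of these effects was 0.28 (SE 0.092, unadjusted p = 0.0035), with an adjusted p of 0.080 in edgeR. DESeq2 gave 0.29 with an adjusted p of 0.039, and edgeR without the 7 libraries gave 0.30 with an adjusted p of 0.033.

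On NC, Cpt1a peaked at ZT 9.23 (SE 0.55 h) with an amplitude of 0.44 in Hep-Bmal1WT and at ZT 6.48 (SE 0.87 h) with an amplitude of 0.26 in Hep-Bmal1KO. The CircaCompare peak difference was -2.75 h (SE 1.04, unadjusted p = 0.012, adjusted p = 0.22), and 13.6% of the 915 genes rhythmic in both genotypes had an unadjusted p under 0.05. The amplitude difference was -0.18 (SE 0.086, unadjusted p = 0.043), where 4.12% of all genes had such a p. These differences of Cpt1a were -3.03 h (unadjusted p = 0.0037) and -0.21 (unadjusted p = 0.0094) without the 7 libraries. On cdHFD the peaks were at ZT 5.98 (SE 0.78 h) in Hep-Bmal1WT and ZT 6.47 (SE 0.72 h) in Hep-Bmal1KO. Within Hep-Bmal1WT the peak on cdHFD was -3.25 h from that on NC (SE 0.94, adjusted p = 0.0047), and within Hep-Bmal1KO the difference was -0.0098 h (SE 1.13). The 2 fits share no library, but the difference between these shifts was not tested.

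Cpt1a rose on cdHFD, from 171 ± 44.9 to 249 ± 65.7 CPM in Hep-Bmal1WT and from 140 ± 25.7 to 249 ± 49.8 CPM in Hep-Bmal1KO (SD, n = 24). The log2 fold changes were 0.56 (SE 0.076, adjusted p = 1.4e-08) and 0.83 (SE 0.056, adjusted p = 2.7e-18). All cdHFD livers were above all NC livers at each of the 6 ZTs in Hep-Bmal1KO, and at ZT 2, 6, 18, and 22 in Hep-Bmal1WT. At ZT 2, 6, 10, 14, 18, and 22 such separation held for 26.2%, 32.1%, 32.4%, 27.9%, 32.9%, and 32.3% of all genes in Hep-Bmal1KO and for 20.1%, 27.7%, 28.9%, 26.4%, 28.8%, and 27.3% in Hep-Bmal1WT.

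Cpt2 (ENSMUSG00000028607, chromosome 4, 107903982 to 107923589), which returns acyl groups from carnitine to CoA inside the mitochondrion, went the other way with diet. Its mean level was 211 ± 32.7 CPM on NC and 152 ± 18.8 CPM on cdHFD in Hep-Bmal1WT, and 186 ± 17.4 and 141 ± 17.2 CPM in Hep-Bmal1KO. The log2 fold changes with diet were -0.47 (SE 0.050) and -0.41 (SE 0.045). Cpt1a and Cpt2 therefore changed in opposite directions in both genotypes.

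With genotype on NC, Cpt2 was lower by a log2 fold change of -0.18 (SE 0.045, adjusted p = 0.0047), and of -0.19 without the 7 libraries (edgeR, adjusted p = 0.0030). At ZT 22 the Hep-Bmal1WT livers had 213, 227, 262, and 299.7 CPM and the Hep-Bmal1KO livers 171, 184, 195, and 206 CPM, with no overlap (6.59% of all genes). They did not overlap at ZT 2 either, with 198, 205, 209.5, and 269.7 CPM against 173, 180.0, 180.5, and 187 CPM. On cdHFD the fold change was -0.11 on the log2 scale (SE 0.049, unadjusted p = 0.024, adjusted p = 0.15). ZT 22 was also the time at which the genotypes did not overlap on cdHFD, with 167, 173, 183, and 187 CPM against 123, 137, 150.0, and 153 CPM (7.39% of all genes). No member separated the genotypes on cdHFD at ZT 2, 6, 10, 14, or 18, where 4.37%, 7.69%, 4.55%, 2.44%, and 6.52% of all genes did. Without the wild-type liver nearer to the other label Fgf21 was separated at ZT 10 on cdHFD, higher in Hep-Bmal1KO (11.4% of all genes). In Hep-Bmal1WT on NC Cpt2 peaked at night, at ZT 22.4 (SE 0.91 h) with an amplitude of 0.20, whereas the fitted peaks of Ppara and Cpt1a were in the light phase.

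**Figure D2:**
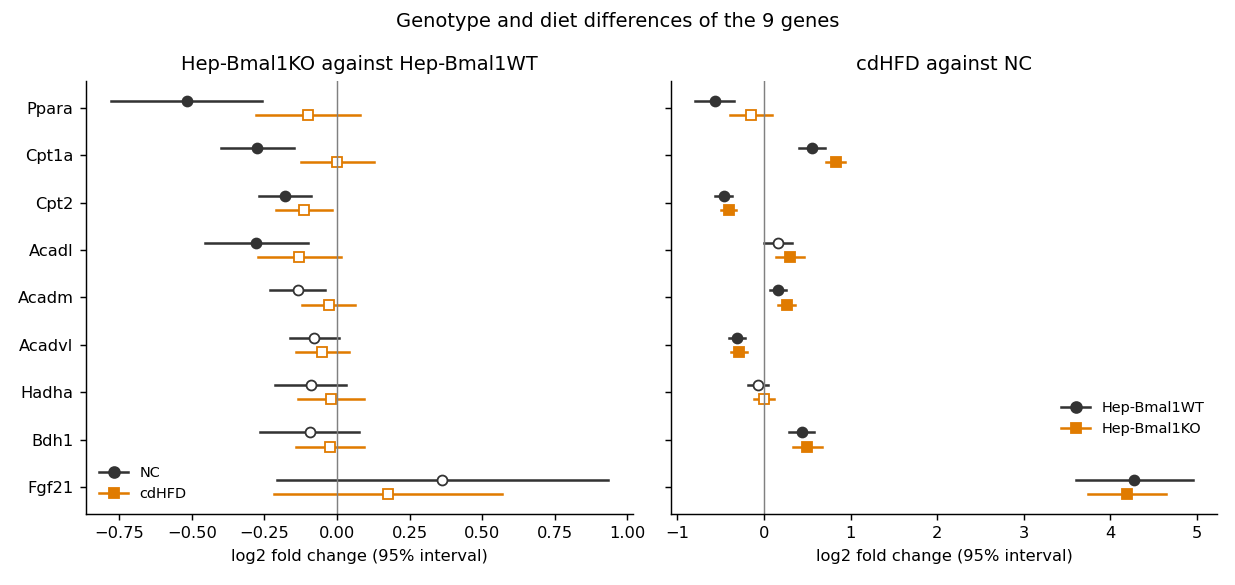
Log2 fold change with its 95% interval (horizontal axis) for each of the 9 genes in the comparisons of genotype and diet, with filled symbols for an adjusted p under 0.05 in edgeR. The genotype differences on NC lie within 1 log2 unit of 0, and the diet differences of Fgf21 exceed 4 log2 units.

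The acyl-CoA dehydrogenases did not move as a group. Acadl (ENSMUSG00000026003, chromosome 1, 66830839 to 66863309), for long chains, was lower in Hep-Bmal1KO on NC, with 248 ± 64.6 CPM in Hep-Bmal1WT and 205 ± 59.7 CPM in Hep-Bmal1KO. The log2 fold change was -0.28 (SE 0.091, adjusted p = 0.034), and -0.36 without the 7 libraries (adjusted p = 0.0016). At ZT 18 the genotypes did not overlap, with 251, 255, 276, and 333 CPM against 150.1, 189, 214, and 241 CPM (3.85% of all genes).

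Acadm (ENSMUSG00000062908, chromosome 3, 153922353 to 153944643), for medium chains, had 230 ± 27.5 CPM in Hep-Bmal1WT and 209 ± 25.6 CPM in Hep-Bmal1KO on NC, with a log2 difference of -0.14 (SE 0.048, adjusted p = 0.054). Acadvl (ENSMUSG00000018574, chromosome 11, 70010183 to 70015428), for very long chains, had 274 ± 24.9 and 260 ± 26.5 CPM, with a log2 difference of -0.078 (SE 0.043, adjusted p = 0.27). On cdHFD the log2 differences with genotype were -0.13 for Acadl (95% interval -0.27 to 0.015), -0.028 for Acadm (-0.12 to 0.063), and -0.050 for Acadvl (-0.14 to 0.041).

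With diet, Acadvl fell in both genotypes and Acadm rose in both. The log2 fold changes in Hep-Bmal1WT were -0.31 for Acadvl (SE 0.045), 0.16 for Acadm (SE 0.048, adjusted p = 0.0036), and 0.16 for Acadl (SE 0.083, adjusted p = 0.10). In Hep-Bmal1KO they were -0.29 for Acadvl, 0.26 for Acadm, and 0.30 for Acadl (SE 0.080, adjusted p = 0.0011). None of the 3 was called rhythmic in any of the 4 combinations of genotype and diet.

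In all, 7 of the 9 genes changed with diet in Hep-Bmal1WT (4 higher, 3 lower) and 7 of the 9 in Hep-Bmal1KO (5 higher, 2 lower). These shares stand beside 55.7% of all genes called in Hep-Bmal1WT (28.7% higher, 27.0% lower) and 61.9% in Hep-Bmal1KO (32.4% higher, 29.6% lower). Cell type markers moved with diet too. All 7 hepatocyte markers were lower and all 9 macrophage markers higher on cdHFD in both genotypes. The summed hepatocyte markers ranged from 103141 to 211516 CPM on NC and from 53901 to 90698 CPM on cdHFD in Hep-Bmal1WT, and from 89822 to 212441 and 48706 to 85836 CPM in Hep-Bmal1KO. The summed macrophage markers ranged from 213 to 557 CPM on NC and from 1041 to 2596 CPM on cdHFD in Hep-Bmal1WT, and from 180.4 to 569.6 and 1468 to 3063 CPM in Hep-Bmal1KO. In bulk liver, fewer hepatocytes and less RNA of a gene per hepatocyte cannot be told apart, and the part of cell composition in the diet differences was not tested.

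Hadha (ENSMUSG00000025745, chromosome 5, 30119423 to 30154980) encodes the α subunit of the trifunctional protein. It passed in none of the comparisons of genotype and diet, with 209 ± 38.9 and 197 ± 44.4 CPM in Hep-Bmal1WT and Hep-Bmal1KO on NC and 198 ± 39.9 and 195 ± 31.9 CPM on cdHFD. The log2 difference with diet in Hep-Bmal1KO was -0.0025, with a 95% interval from -0.11 to 0.11.

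Its levels did vary with time. At ZT 10 the Hep-Bmal1WT livers on NC had 143, 154, 156, and 159 CPM and the Hep-Bmal1KO livers 124, 150.2, 157, and 172 CPM. On cdHFD they had 120.4, 138, 145, and 158 CPM and 145, 150.3, 156, and 160.0 CPM. The ZT 10 mean was thus 0.70, 0.73, 0.67, and 0.75 times the mean of the other 20 livers in Hep-Bmal1WT on NC, Hep-Bmal1KO on NC, Hep-Bmal1WT on cdHFD, and Hep-Bmal1KO on cdHFD. With ZT as a factor in edgeR, a test added after the profiles had been seen, the adjusted p for Hadha was 0.033, 0.0090, 0.019, and 0.025 in the same order. A cosine of 24 hours did not call Hadha rhythmic in any of the 4. Between 13.2% and 21.2% of all genes passed the test with ZT as a factor.

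Acadl was also low at ZT 10, at 0.67, 0.72, 0.72, and 0.79 times the mean of the other times, without passing that test in any combination (adjusted p = 0.089, 0.16, 0.077, and 0.22). The libraries of ZT 10 had the highest median share of reads that fell on no gene, at 9.47% (8.90% to 11.3%), against medians between 7.64% and 8.20% at the other ZTs. Single libraries of ZT 2 reached 11.2%, so the times overlapped. Mitochondrial transcripts had a median of 8.25% at ZT 10 and between 5.28% and 7.13% at the others. Their part in the low values was not tested.

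**Figure D3:**
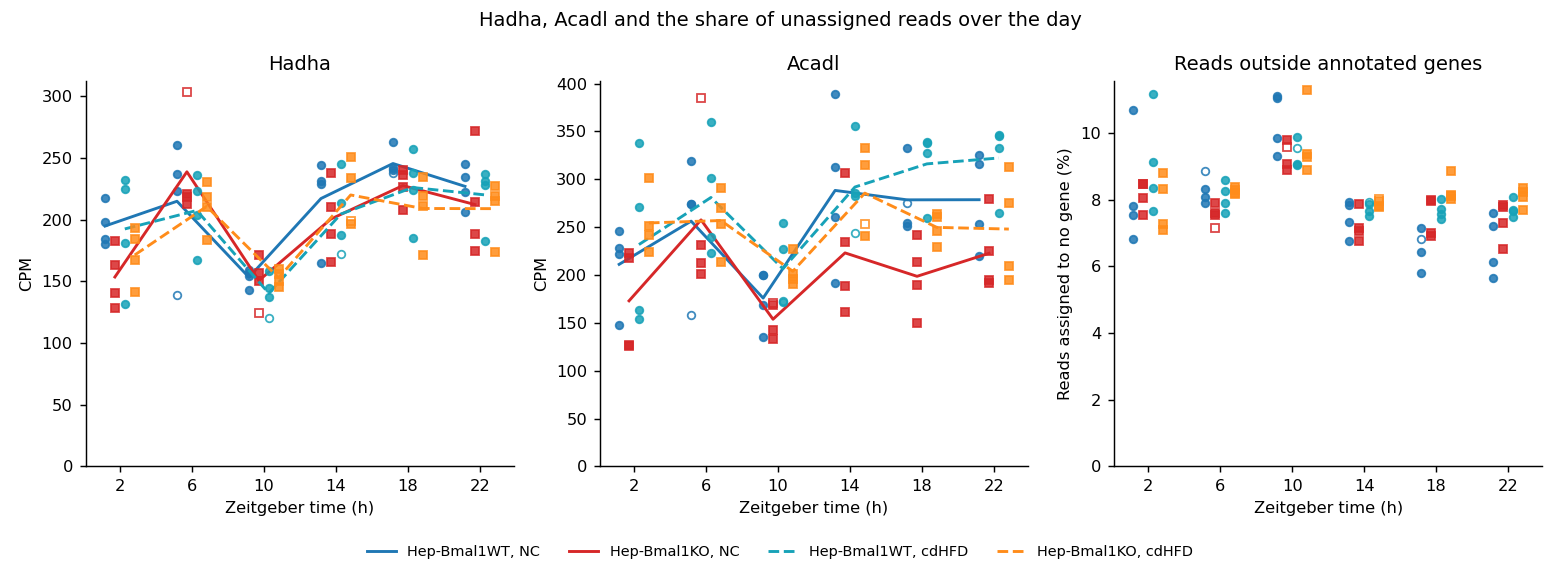
Levels of Hadha and Acadl (CPM) and the percentage of reads on no gene in every library against ZT in hours for the 4 combinations of genotype and diet, with lines through the means of 4 mice and open symbols for the 7 libraries nearer to the other genotype label. At ZT 10 Hadha lies between 120.4 and 172 CPM in all 16 livers, and the median share of reads on no gene is 9.47%.

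Bdh1 (ENSMUSG00000046598, chromosome 16, 31422297 to 31458901) makes 3-hydroxybutyrate, the main circulating ketone body. No genotype difference was found on NC (207 ± 62.05 against 194 ± 57.2 CPM, log2 difference -0.094, 95% interval -0.26 to 0.076) or on cdHFD (275 ± 40.3 against 270.2 ± 45.3 CPM, log2 difference -0.024, 95% interval -0.14 to 0.093). It rose with diet by a log2 fold change of 0.44 (SE 0.073, adjusted p = 1.3e-06) in Hep-Bmal1WT and 0.50 (SE 0.085, adjusted p = 1.5e-06) in Hep-Bmal1KO. On NC it peaked at ZT 8.65 (SE 0.91 h, amplitude 0.36) in Hep-Bmal1WT and at ZT 8.83 (SE 0.9997 h, amplitude 0.37) in Hep-Bmal1KO, a difference of 0.18 h (SE 1.35). On cdHFD the fitted amplitudes were 0.16 and 0.14, and neither was called rhythmic, although Bdh1 in Hep-Bmal1WT was without the 7 libraries.

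Bdh1 and Acadl also differed between the sexes. On NC, Bdh1 had 168 ± 34.2 CPM in 24 males and 233 ± 61.7 CPM in 24 females. At ZT 10 the 2 males and 2 females of Hep-Bmal1WT had 192 and 224 CPM against 321 and 330 CPM, and those of Hep-Bmal1KO 212 and 219 CPM against 262 and 290 CPM. At ZT 18 in Hep-Bmal1WT the sexes overlapped, with males at 142 and 172 CPM and females at 148 and 166 CPM. Over all livers on NC the log2 fold change of males against females was -0.45 for Bdh1 (SE 0.057, adjusted p = 1.1e-08) and -0.42 for Acadl (SE 0.067, adjusted p = 2.7e-06). These 2 of the 9 were lower in males, where 9.78% of all genes were (18.3% in either direction).

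On cdHFD 4 of the 9 were lower in males, where 3.28% of all genes were (5.80% in either direction). They were Bdh1 at -0.23 (SE 0.052), Acadl at -0.26 (SE 0.064), Acadm at -0.16 (SE 0.042), and Acadvl at -0.17 (SE 0.042), as log2 fold changes of males against females. Bdh1 had 252 ± 33.4 CPM in 25 males and 294 ± 41.3 CPM in 23 females. No count of the 9 changed without the 7 libraries, but with replicate 4 of each group left out none passed on cdHFD. For Fgf21 no sex difference was found, at -0.13 on NC (95% interval -0.68 to 0.42) and 0.28 on cdHFD (-0.10 to 0.67), but these intervals are wide.

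**Figure D4:**
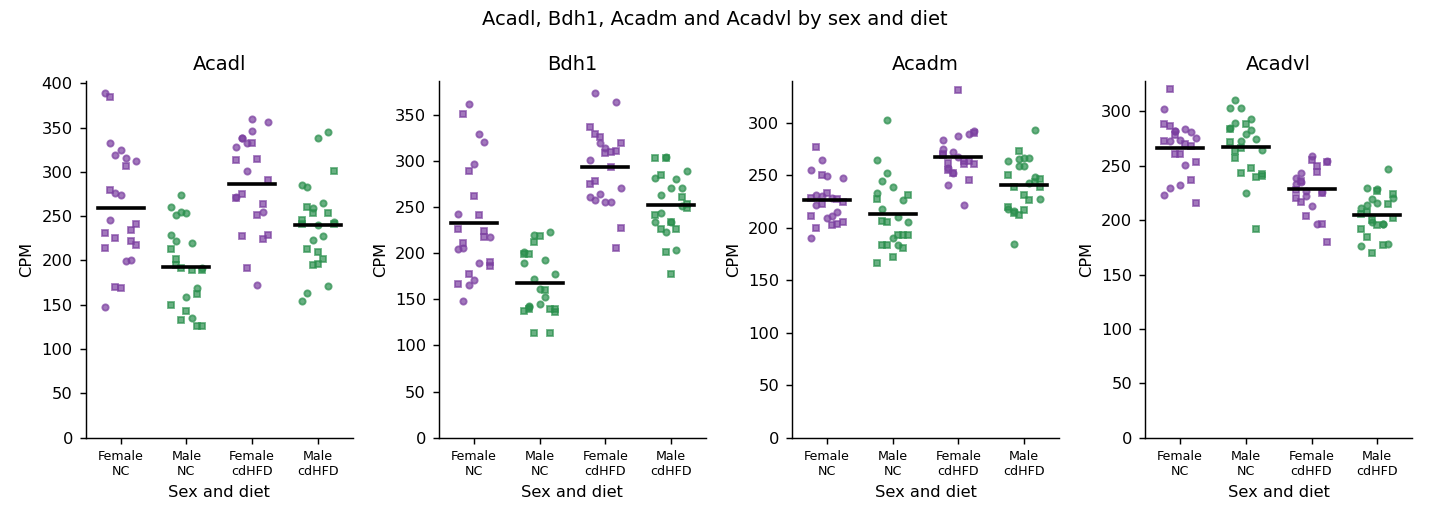
Levels of Acadl, Bdh1, Acadm, and Acadvl (CPM, vertical axes) in every mouse by sex and diet, with circles for Hep-Bmal1WT, squares for Hep-Bmal1KO, and a bar at the mean of each sex and diet. On NC the males average 168 CPM for Bdh1 and the females 233 CPM.

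Fgf21 (ENSMUSG00000030827, chromosome 7, 45613890 to 45615490) had the largest log2 fold change with diet of the 9 genes. On NC its level in 24 Hep-Bmal1WT livers ranged from 0.430 to 20.2 CPM with a median of 2.67, and in 24 Hep-Bmal1KO livers from 0.802 to 15.8 CPM with a median of 4.11. On cdHFD the ranges were 20.4 to 331 CPM with a median of 78.3, and 26.9 to 281 CPM with a median of 78.1. The lowest cdHFD liver of each genotype was above the highest NC liver of the same genotype, which held for 3.74% of all genes in Hep-Bmal1WT and 5.74% in Hep-Bmal1KO. In Hep-Bmal1WT that margin was small, 20.4 against 20.2 CPM. The fold was 19.4 in Hep-Bmal1WT (log2 4.28, SE 0.34, adjusted p = 1.7e-15) and 18.3 in Hep-Bmal1KO (log2 4.19, SE 0.23, adjusted p = 1.4e-21).

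No genotype effect on the mean of Fgf21 was found, on NC (log2 difference 0.36, 95% interval -0.21 to 0.94) or on cdHFD (0.18, 95% interval -0.22 to 0.57), and for Fgf21 without the 7 libraries the differences were 0.40 and 0.24 (edgeR, adjusted p = 0.45 and 0.55). The difference between these effects was -0.11 (95% interval -0.80 to 0.59). These intervals are wide. On NC the interval includes a rise in Hep-Bmal1KO larger in size than the falls called for Ppara and Cpt1a, but no fall as large as those.

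On NC, Fgf21 was highest in the light phase in Hep-Bmal1WT. At ZT 6 those livers had 2.67, 12.9, 15.5, and 20.2 CPM and the Hep-Bmal1KO livers 2.76, 5.40, 6.40, and 15.8 CPM. At ZT 22 the levels were 0.430, 1.10, 1.42, and 2.88 CPM in Hep-Bmal1WT and 4.24, 6.10, 7.45, and 10.1 CPM in Hep-Bmal1KO. At ZT 6 the genotypes overlapped, with 3 of 4 wild types above 3 of 4 knockouts, and the wild-type liver at 2.67 CPM and the knockout liver at 6.40 CPM were among the 7 nearer to the other label. At ZT 22 every knockout was above every wild type (6.59% of all genes).

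The fit on NC gave a peak at ZT 6.43 (SE 0.82 h) and an amplitude of 0.86 (SE 0.18) in Hep-Bmal1WT and an amplitude of 0.096 (SE 0.19) in Hep-Bmal1KO. The amplitude difference was -0.76 (SE 0.26) with an unadjusted p of 0.0062 and an adjusted p of 0.93. The amplitude difference of Fgf21 without the 7 libraries was -0.92 (unadjusted p = 0.0027). Of the 9 genes 3 had an unadjusted p under 0.05 for amplitude, Fgf21, Cpt1a, and Cpt2, and none passed after adjustment.

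On cdHFD, Fgf21 was low in the light phase and high in the dark phase in Hep-Bmal1WT. The livers at ZT 6 had 20.4, 46.9, 51.3, and 74.4 CPM, and those at ZT 22 had 96.1, 104, 126, and 164 CPM. At ZT 14 the levels were 61.9, 82.7, 100.3, and 331 CPM, and 1 liver stood far above the rest. The fitted peak was at ZT 18.3 (SE 0.99 h) with an amplitude of 0.81 (SE 0.21), and the daily profiles differed between diets (edgeR, adjusted p = 1.3e-05). By CircaCompare the peaks were 11.9 h apart (SE 1.28, adjusted p = 3.6e-09), so near to 12 h that earlier and later cannot be told apart on a cycle of 24 h.

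In Hep-Bmal1KO on cdHFD the mean was highest at ZT 18, where the livers had 81.2, 153, 174, and 281 CPM. At ZT 22 they had 59.8, 63.1, 70.3, and 107 CPM, and at ZT 6 26.9, 44.2, 83.9, and 117 CPM. The fitted peak was at ZT 16.2 (SE 1.29 h) with an amplitude of 0.55 (SE 0.19). This call rested on edgeR's test (p = 0.0057, n = 24), since neither the cosinor test (p = 0.026) nor JTK_CYCLE (p = 0.20) passed. The peak difference between genotypes on cdHFD was -2.16 h (SE 1.66, unadjusted p = 0.20).

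**Figure D5:**
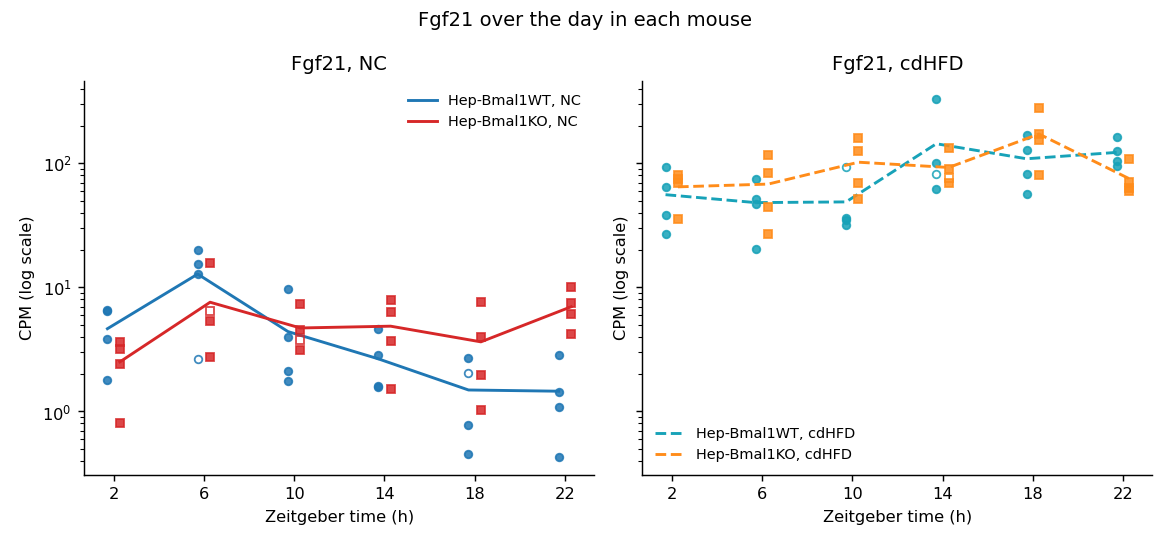
Level of Fgf21 in every mouse (CPM, log axis) against ZT in hours on NC and on cdHFD for both genotypes, with open symbols for the 7 libraries nearer to the other genotype label. In Hep-Bmal1WT the fitted peak is at ZT 6.43 on NC and at ZT 18.3 on cdHFD.

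The rest of the pathway was described with lists. Their counts stand beside shares of all genes called of 12.6% with genotype on NC (17.1% without the 7 libraries), 9.61% on cdHFD (6.55% higher and 6.46% lower without them), 55.7% with diet in Hep-Bmal1WT, and 61.9% with diet in Hep-Bmal1KO. The medians of all genes were -0.012, 0.0099, 0.013, and 0.023 in the same order. Of 22 genes of mitochondrial fatty acid oxidation, 6 of them members, 12 were lower and 3 higher in Hep-Bmal1KO on NC, with a median log2 fold change of -0.17 against -0.012 for all genes. Slc25a20, the carnitine-acylcarnitine carrier between the Cpt1a and Cpt2 steps, was at -0.39 (SE 0.075, adjusted p = 0.00021). Etfdh, which passes electrons from the dehydrogenases to the respiratory chain, was higher, at 0.22 (SE 0.057, adjusted p = 0.0056). On cdHFD 2 were lower and 0 higher, with a median of -0.11 against 0.0099 for all genes. With diet, 13 were lower and 4 higher in Hep-Bmal1WT and 12 lower and 5 higher in Hep-Bmal1KO, 17 of 22 in each, with medians of -0.22 and -0.21. Without the 7 libraries 15 were lower and 3 higher with genotype on NC, and 3 lower on cdHFD. The fall with diet was led by Acsl1, a long-chain acyl-CoA synthetase, at -1.56 and -1.59.

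Of 15 genes of peroxisomal oxidation, 7 were lower and 2 higher with genotype on NC, and 5 lower and 1 higher on cdHFD, with medians of -0.23 and -0.14. The counts without the 7 libraries were 7 lower and 3 higher on NC and 6 lower and 1 higher on cdHFD. Acaa1a, a peroxisomal thiolase, was at -0.55 on NC (SE 0.072, adjusted p = 3.6e-07) and -0.41 on cdHFD (SE 0.078, adjusted p = 0.00021). With diet 7 were lower and 2 higher in Hep-Bmal1WT, and 7 lower and 3 higher in Hep-Bmal1KO, with Abcd3, a fatty acyl transporter of the peroxisome membrane, at -0.90 and -0.91. The medians with diet were -0.24 and -0.17.

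Of 7 genes of ketone body synthesis and export, 2 were lower and 2 higher with genotype on NC. Of the monocarboxylate transporters, Slc16a7 was at -0.81 (SE 0.21, adjusted p = 0.0058) and Slc16a1 at 0.36 (SE 0.085, adjusted p = 0.0026). On cdHFD 1 was lower and 1 higher, Slc16a7 at -0.36 and Slc16a1 at 0.34. With diet 3 were higher and 2 lower in Hep-Bmal1WT and 3 higher and 1 lower in Hep-Bmal1KO. The medians were -0.052 and -0.024 with genotype on NC and cdHFD and 0.12 and 0.088 with diet, and the counts with genotype did not change without the 7 libraries.

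Of 14 partners and coregulators of PPARA, Ppara included, 4 were lower and 0 higher with genotype on NC, and 3 lower and 0 higher on cdHFD, with a median of -0.12 on both. When the 7 libraries were left out 1 was also higher on NC. Hnf4a, a hepatocyte nuclear receptor that is also 1 of the 7 hepatocyte markers, was at -0.29 and -0.25. Creb3l3, a transcription factor of the endoplasmic reticulum membrane that acts on Fgf21 with PPARA, was at -0.22 and -0.19. With diet 7 were lower in both genotypes, with 1 higher in Hep-Bmal1WT and 0 in Hep-Bmal1KO. The called shares were thus 8 of 14 and 7 of 14, near to or under those of all genes, and the medians -0.36 and -0.21. Hnf4a was at -0.81 and -0.77.

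Of 20 listed PPARA-inducible genes 19 were measured. With genotype on NC 7 were lower and 2 higher, with a median of -0.39 against -0.012 for all genes. Fabp1, the liver fatty acid-binding protein, was at -0.68 (SE 0.085, adjusted p = 2.1e-07), and Pdk4, a kinase that turns off pyruvate dehydrogenase, was at 1.09 (SE 0.28, adjusted p = 0.0049). The level of Pdk4 was low, at 1.86 ± 1.73 CPM in Hep-Bmal1WT and 3.58 ± 1.99 CPM in Hep-Bmal1KO. On cdHFD 5 were lower and 2 higher, with a median of -0.0068. Without the 7 libraries 10 were lower and 2 higher on NC, and the counts on cdHFD were the same. With diet 10 rose and 6 fell in Hep-Bmal1WT, and 10 rose and 2 fell in Hep-Bmal1KO, with medians of 0.33 and 0.53. Cidec, a lipid droplet protein, was at 3.79 and 4.60, and Fabp1 at -1.61 and -1.22. Targets of the receptor thus moved in both directions.

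Among the 5 genes for FGF21 receptors and their binding partner, Klb, the β-klotho coreceptor that FGF21 needs, was lower with genotype on NC, at -0.51 (SE 0.17, adjusted p = 0.039), and so was Fgfr3 at -0.39 (SE 0.099, adjusted p = 0.0050). None of the 5 passed on cdHFD in edgeR, with 3 at an unadjusted p under 0.05, and without the 7 libraries 1 was higher and 1 lower there. With diet 3 of 5 were lower and 0 higher in Hep-Bmal1WT, and 2 were lower and 2 higher in Hep-Bmal1KO. The medians were -0.30 and 0.0026 with genotype on NC and cdHFD and -0.22 and -0.038 with diet. Klb fell with diet, at -0.98 in Hep-Bmal1WT and -0.80 in Hep-Bmal1KO, opposite to its ligand gene. Fgfr4, the main FGF receptor of hepatocytes, was also lower on cdHFD, at -0.62 and -0.76.

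Of 14 genes of the integrated stress response, a translational stress pathway whose factor ATF4 also acts on Fgf21, 11 rose with diet in Hep-Bmal1WT and 12 in Hep-Bmal1KO, and none fell. The medians were 1.23 and 1.54, against 0.013 and 0.023 for all genes, and Atf3, a stress-induced transcription factor, was at 3.90 (SE 0.17) and 4.23 (SE 0.18). With genotype 1 was higher and 2 lower on NC, and 2 higher and 0 lower on cdHFD, and without the 7 libraries 2 higher and 2 lower, and 3 higher and 0 lower. Atf5 was higher on NC at 0.70 (SE 0.12) and on cdHFD at 0.42 (SE 0.10), and Asns, asparagine synthetase, was lower on NC at -2.52 (SE 0.48, adjusted p = 0.00016), from 4.72 ± 6.27 to 0.795 ± 0.732 CPM. All 5 genes of a list on malonyl-CoA, the inhibitor of CPT1A, fell with diet in both genotypes, with Acly at -1.96 and -2.21. Besides genes that supply malonyl-CoA, the list holds Fasn, which uses it, and Mlycd, which breaks it down. Its counts therefore give no direction for the supply, and Mlycd is also counted in the list of mitochondrial oxidation. None of the 5 passed with genotype on NC in edgeR, with 1 at an unadjusted p under 0.05. On cdHFD 3 were lower, Fasn at -0.76, Acacb at -1.09, and Mlycd at -0.14. Leaving out the 7 libraries gave 1 lower on NC and 4 on cdHFD.

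The levels of each member over the 24 means of genotype, diet, and ZT were also set beside those of all other genes, as a description. These means come from the same libraries and share their depth. They also span both diets, so genes that change with diet can be alike or opposed through that change alone. Likeness within a diet was not computed, and shared regulation was not tested. For Fgf21 the most alike were Relb (Pearson's r = 0.97), Egr2 (0.97), and Serpina3g (0.96). For Cpt1a they were Tgfbr1 (0.92), Mt1 (0.91), and Mdm2 (0.91), and for Ppara Slc6a16 (0.87), Pcsk4 (0.86), and Gne (0.84). For Cpt2 they were Acsl1 (0.92), Afmid (0.91), and Sec14l2 (0.91). For Acadl they were Reep3 (0.90), Hadhb (0.89), and Bnip2 (0.89), and for Acadm Eif4g2 (0.90), Rala (0.88), and Hadhb (0.87). Hadhb encodes the β subunit that pairs with HADHA. For Hadha itself they were Eif1 (0.92), Cyp4b1 (0.91), and Rdm1 (0.91), for Acadvl Nadk2 (0.95), Adi1 (0.94), and Bnip3l (0.93), and for Bdh1 Nfkbia (0.93), Rdh9 (0.91), and Gss (0.90). Among the members, Cpt1a and Bdh1 were the most alike (0.89), and Acadvl and Fgf21 the most opposed (-0.83).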

How the data were processed

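RNA of 96 mouse livers was read by BRB-seq. Per the labels and the submitters' processing notes, the authors aligned 3′ reads to mm10 with STAR, and HTSeq and featureCounts are both named for counting. The deposited values are raw counts per gene without normalization. Whether reads of 1 molecule were collapsed is not given in the sources used here, so depth covers counting error only. Entries of the table that name no gene were left out of library sizes: not-aligned reads were 14.8% to 34.0% and reads on no gene 5.65% to 11.3% of a library. Each of the 24 groups holds 4 mice, and each mouse is 1 replicate.

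The tools were R 4.3.3, edgeR 4.0.16, and DESeq2 1.42.0. Genes under 100 counts in all were dropped. Genotype, diet, and sex were tested by edgeR's quasi-likelihood test after TMM scaling with ZT as a factor, and daily profiles with a cosine and a sine of 24 hours, with Benjamini-Hochberg adjustment over all 15548 genes at 0.05. Genotype effects are Hep-Bmal1KO against Hep-Bmal1WT, diet effects cdHFD against NC. CPM are TMM-scaled and not divided by gene length. Intervals are at 95%. Rhythms and CircaCompare fits, refitted by least squares, used DESeq2's variance-stabilized values. Of the study's 4 rhythm methods only JTK_CYCLE was run. The tests of genotype and of genotype by rhythm, the cosinor test, JTK_CYCLE, and CircaCompare were first run on simulated counts modeled on the NC libraries. The tests of diet, sex, genotype by diet, diet by rhythm, and ZT as a factor were not run on them. Nor was edgeR's test of the cosine and sine terms within a group.

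The rule for naming genes covered the 9 members, the lists, at most the 2 higher and 2 lower genes with the smallest p from each list and comparison, and the 3 genes most like each member. Members and lists were chosen with earlier results of these data known. Alternatives were other normalizations, filters, and tests, each replicate number left out, the 7 libraries left out, sex as a covariate, and each sex alone. ZT as a factor within groups and leaving out ZT 10 were added after seeing the data. Positions are from RefSeq for GRCm38.p6, matched by gene symbol. No sequence was read here. Some genes of the lists are counted but not reported singly here.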

Additional observations from a re-analysis of the deposited data

Results flagged for a closer look

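A mouse stood apart from the other 3 of its group, by a gap larger than Dixon's 95% critical value for 4 samples, in 16 of 216 sets of 4 values, or 7.41%. Chance flags about 1 in 20. Of the 16 values, 6 came from libraries nearer to the other genotype label. In CPM the values that stood apart on NC were 36.4 for Ppara (Hep-Bmal1KO, ZT 10), 138 for Cpt1a (Hep-Bmal1WT, ZT 6), 269.7 for Cpt2 (Hep-Bmal1WT, ZT 2), 384.8 for Acadl (Hep-Bmal1KO, ZT 6), 225 and 232 for Acadvl (Hep-Bmal1WT, ZT 6 and ZT 22), and 263 and 303 for Hadha (Hep-Bmal1WT at ZT 18 and Hep-Bmal1KO at ZT 6). On cdHFD they were 259.6 and 264.7 for Acadl (Hep-Bmal1WT, ZT 18 and ZT 22), 176 and 259 for Acadvl (Hep-Bmal1WT, ZT 2 and ZT 6), 169.7 for Acadvl (Hep-Bmal1KO, ZT 22), 183 for Hadha (Hep-Bmal1WT, ZT 22), and 92.7 and 331 for Fgf21 (Hep-Bmal1WT, ZT 10 and ZT 14).

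Daily profiles in Hep-Bmal1WT differed between NC and cdHFD for Fgf21 (adjusted p = 1.3e-05) and for Cpt1a (adjusted p = 0.045) in edgeR's test of diet with the cosine and sine terms. The peak time on cdHFD against NC differed by -3.23 h for Ppara, -3.25 h for Cpt1a, and 11.9 h for Fgf21 in CircaCompare.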

How the results depend on the processing

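Alternatives changed no direction of a called difference in genotype, diet, or sex. Depth limits Fgf21 on NC most, where the lowest count was 2. The replicate numbers follow sample order. No paired analysis was possible because the labels give no replicate numbers and each mouse gave 1 library.

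Counts of the 9 genes that pass moved by more than 1.5 times as follows, and the cause was not tested. For genotype on NC (4) they were 1 to 4 with a replicate number left out and 0 in females alone. For genotype on cdHFD (0) they were 0 to 1 with a replicate number left out and 1 in females. For genotype by diet (0) they were 1 with DESeq2 and 2 without the 7 libraries. For diet by rhythm in Hep-Bmal1WT (2) they were 1 with no filter beyond 1 count, with each replicate number left out, without the 7 libraries, and in males. For sex they were 4 on NC with DESeq2 (2) and 0 to 3 on cdHFD with a replicate number left out (4).

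Rhythm calls were 3 in males for Hep-Bmal1WT on NC (5). For Hep-Bmal1KO they were 1 to 2 on NC with a replicate number left out and 1 in males (2), and on cdHFD (2) 1 with the cosinor test alone, JTK_CYCLE alone, or adjusted p, 1 to 2 with a replicate number left out, and 0 in males.

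CircaCompare counts at an unadjusted p under 0.05 moved as follows, each range being that with a replicate number left out. For genotype on NC, mesor (6) gave 3 to 6, 3 in females, and 3 with adjusted p. Amplitude (3) gave 0 to 3, 0 in males, and 0 with adjusted p, and peak time (1) gave 0 to 1, and 0 in males, in females, and with adjusted p. For genotype on cdHFD, mesor (1) gave 0 to 2, and 0 without the 7 libraries, in males, in females, and with adjusted p. Amplitude (0) gave 1 in males and 1 in females, and peak time (0) gave 1 in females. For diet in Hep-Bmal1WT, amplitude (1) gave 0 to 1, 0 in males, 2 in females, and 0 with adjusted p, and peak time (3) gave 0 in males. For diet in Hep-Bmal1KO, amplitude (0) gave 0 to 1, and 1 in males. The amplitude difference of Bdh1 with genotype on NC was 0.0054 and was -0.20 in females alone.

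Over all genes, the counts called moved by more than 1.5 times as follows, with ranges again over the replicate number left out. Genotype on NC (1960) gave down to 940 and 578 in females, and on cdHFD (1494) down to 522, 802 in males, and 647 in females. Genotype by diet (473) gave down to 103, 919 without the 7 libraries, 153 in females, and 211 without ZT 10. Genotype by rhythm on NC (61) gave 1 to 38, 32 with DESeq2, 0 with the stricter filter, 137 with no filter, 179 without the 7 libraries, 29 in males, and 39 in females. On cdHFD (66) it gave 12 to 35, 20 with DESeq2, 9 with the stricter filter, 164 with no filter, and 0 in females. Diet by rhythm in Hep-Bmal1WT (963) gave 348 to 534, 462 in males, and 234 in females, and in Hep-Bmal1KO (141) 3 to 17, 346 with DESeq2, 223 with sex as a covariate, 58 in males, and 44 in females. Sex gave down to 1697 on NC (2838) and 386 to 530 on cdHFD (902).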
